A study of Mus musculus with 12 samples.

Results

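Oxidative phosphorylation is the machinery of the mitochondrial inner membrane that passes electrons from NADH and succinate to oxygen and uses the proton gradient so built to make ATP. The genes described here are its parts and some of its builders: protein-coding genes of the count table whose names begin with Nduf, Uqcr, Atp5 or Cox4 to Cox8, together with Sdha to Sdhd, Cyc1, Cycs and the mitochondrially encoded mt-Nd, mt-Co, mt-Atp and mt-Cyt genes. The name rule took 109 of 54532 genes, among which 22046 are protein-coding. Of the 109 members, 96 lie in nuclear chromosomes and 13 in the mitochondrial genome. By role, 43 members were assigned to complex I (NADH dehydrogenase), 8 to complex I assembly (the Ndufaf genes), 4 to complex II (succinate dehydrogenase), 10 to complex III (the bc1 complex), 1 to cytochrome c, 23 to complex IV (cytochrome c oxidase) and 20 to complex V (ATP synthase). A further 13 rows with matching names had another biotype, mostly processed copies, and were not members.

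The cells were N9 cells, a mouse microglial line grown without limit in culture (microglia are the brain's own macrophages), and their RNA was sequenced in 4 groups of 3 libraries within a study of sugar use by microglia in Alzheimer disease. The first group had high fructose medium (15 mM fructose) for 18 h and then lipopolysaccharide (LPS, a bacterial surface molecule that activates Toll-like receptor 4) at 1 µg/ml for 6 h. The second had high glucose medium (15 mM glucose) with the same LPS, the third had control medium (glucose-free DMEM with dialyzed serum, 3 mM glucose and 5 mM fructose) with the same LPS, and the fourth had control medium alone. The raised media are described as control medium with the sugar at 15 mM, so the other sugar was also present, and whether 15 mM is the final level is not stated. N9 is 1 line, there was no raised-sugar group without LPS, and the labels leave unsaid whether the replicate libraries are from separate cultures, so the tests measure the spread among the samples as sequenced, part or all of which may be technical.

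Total counts per library were 15453776 to 17956772. Of 14 microglial and macrophage markers, 11 were abundant enough to be tested, and with LPS 2 of them rose and 3 fell, but Aif1, C1qa and P2ry12 had at most 11 counts in any library, so these 3 defining markers of brain microglia were near 0. The summed markers of endothelium, fibroblasts and skeletal and heart muscle stayed at or below 14.1 CPM (counts scaled to a common library size) in every library, and the 4 testis markers had no read. The summed neuron markers were at 42.4 to 50.4 CPM in high fructose with LPS and 27.6 to 32.2 in high glucose with LPS. In control medium they were at 26.7 to 31.3 CPM with LPS and 27.2 to 28.8 without. Of these 5 markers 2 were tested. In high fructose over control medium, both with LPS, 1 of them rose, with a log2 fold change of 1.27, and the other had -0.03. The summed astrocyte markers were at 20.8 to 24.3 CPM in control medium with LPS and 28.9 to 30.9 in control medium, and the oligodendrocyte markers at 27.4 to 28.5 and 34.6 to 41.3 CPM in the same 2 groups, with Olig2 at 0 in every library. The part of these markers in the results was not tested. LPS raised its known targets in control medium: Tnf rose by 3.87 ± 0.07 and Acod1 by 4.70 ± 0.05 (log2 fold change ± SE), with adjusted p values of 3.71e-17 and 1.54e-20 in edgeR. One high-glucose library, number 1, and one high-fructose library, number 2, stand apart from the other libraries of their groups over the nuclear members, as set out below. Some results are given with and without them.

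The genes of the respiratory chain sit in 2 genomes. Mitochondrial DNA encodes a few core subunits of complexes I, III, IV and V, is transcribed from both strands into long precursors that also carry the ribosomal RNAs (rRNAs), and has its own polymerase, Polrmt; all other subunits, and all of complex II, are transcribed in the nucleus and imported. In activated macrophages the chain is known to serve not only ATP production but also the generation of superoxide, and nitric oxide made by Nos2 can inhibit complex IV.

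Levels come first, on the authors' FPKM scale (fragments per kilobase of gene, scaled to the size of the library). The length used is that of the annotated gene, which can exceed the principal transcript. It was 4237 against 1916 bases for Atp5b, but 957 in both for mt-Nd1. Ranks and medians across genes therefore depend on that length. They also depend on where reads of genes with copies were placed, as described below for the mitochondrial members. The highest member was mt-Co1, the catalytic core subunit of complex IV, with a mean of 1910 FPKM over the 12 libraries and a range of 1450 to 2350. The second was mt-Nd1, a core membrane subunit of complex I, at 1010 FPKM (720 to 1310), and its range did not overlap that of mt-Co1. The third, and the nuclear member with the most FPKM, was Atp5a1, the alpha subunit of ATP synthase, at 718 FPKM (676 to 749). Its range overlapped those of mt-Nd1 and of mt-Cytb, the cytochrome b of complex III, at 595 FPKM (471 to 699). Cox8a at 523 FPKM and Atp5b, the catalytic beta subunit of ATP synthase, at 481 FPKM followed, again with overlapping ranges. Among tested nuclear members the median was 40.1 FPKM for 36 complex I subunits, 70.1 for the 4 of complex II, 110.0 for 9 of complex III, 109.1 for 14 of complex IV and 74.6 for 17 of complex V. The 8 complex I assembly factors, which act in building the complex and are not part of it, had a median of 10.7 FPKM. Succinate dehydrogenase, which also belongs to the tricarboxylic acid cycle, was led by its membrane anchor Sdhd at 202 FPKM.

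Complex IV has alternative subunits for different tissues, and N9 libraries held almost entirely the widespread forms. Cox6a1 averaged 404 FPKM, against 5.44 FPKM for the heart and muscle form Cox6a2, which is 1.34% of it and had 32 to 87 counts. Cox7a2 averaged 127 FPKM, against 5.24 FPKM for the muscle form Cox7a1. Cox4i1 averaged 309 FPKM, against 0.131 FPKM for Cox4i2, an isoform known from lung, with 0 to 4 counts per library. Cox8b, a muscle form, had 0 to 4 counts, and the testis forms Cox6b2 and Cox8c had at most 1 count and no count. Ndufa4, now regarded as a subunit of complex IV, averaged 104 FPKM, whereas its relatives Ndufa4l2 and AA467197, of which AA467197 is no member, had at most 5 and 10 counts. The muscle forms Cox6a2 and Cox7a1, which were tested, passed no test in any comparison.

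The mitochondrial members split into well counted and hardly counted genes. In every library 7 of the 13 had over 1000 counts (mt-Nd1, mt-Nd2, mt-Nd4, mt-Nd5, mt-Nd6, mt-Cytb and mt-Co1), while 6 never reached 1000 and together held 0.497% of all mitochondrial member counts. Those 6 are mt-Co2, mt-Co3, mt-Atp6, mt-Atp8, mt-Nd3 and mt-Nd4l, which lie in 1 block of the mitochondrial genome. Chromosome 1 holds a row of pseudogenes copied from that block, and the transcripts of mt-Co2, mt-Atp6, mt-Co3, mt-Nd3 and mt-Nd4l aligned with one of them over all but 1 to 3 of their bases. The copy Gm10925 equalled mt-Atp6 in all 678 aligned bases, and Gm28438 differed from mt-Nd3 in 1 of 345. The stretches below show both cases. The first pair has no difference, so that a read inside it cannot be placed by its sequence, and in the second the capital marks the substitution T3C, counted from the first base of the mt-Nd3 transcript, mt-Nd3 first. Positions are GRCm38, 5′ to 3′ on the transcribed strand, from GENCODE M21: mt-Atp6 at MT:8236-8295 (+), Gm10925 at chr1:24614283-24614342 (-), mt-Nd3 at MT:9459-9518 (+) and Gm28438 at chr1:24613060-24613119 (-).
mt-Atp6: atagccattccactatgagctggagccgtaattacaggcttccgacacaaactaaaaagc
Gm10925: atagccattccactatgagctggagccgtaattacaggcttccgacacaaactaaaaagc
mt-Nd3: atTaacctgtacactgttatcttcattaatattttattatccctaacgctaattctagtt
Gm28438: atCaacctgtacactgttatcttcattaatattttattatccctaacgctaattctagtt

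In the count table Gm10925 itself held 132 to 194 counts per library, beside 111 to 184 for mt-Atp6. Those 5 mitochondrial members are therefore uncertain in level. The copy also covers 63.6% of the mt-Nd4 transcript and 31.3% of mt-Co1, which kept 3844 to 6337 and 36870 to 59675 counts. No match to another annotated transcript was found for mt-Nd1, mt-Nd2, mt-Nd5, mt-Nd6 or mt-Cytb, nor for mt-Atp8 inside the block. The search covered annotated transcripts alone, so a copy lying between them would be missed. mt-Atp8 lies mainly between mt-Co2 and mt-Atp6, whose copies Gm28661 and Gm10925 are neighbours in the row of pseudogenes. Its level is therefore uncertain too. Of the nuclear members, 8 of 96 matched another gene over at least 50% of their transcript (Ndufs3, Uqcrb, Cox7c, Atp5f1, Atp5g2, Atp5h, Atp5l and a second Atp5o entry without reads), and their counts are uncertain in the same way.

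The contrast between the 2 genomes was small next to the spread between libraries. Nuclear members took 1.45 ± 0.12% of the counts in high fructose with LPS, 1.51 ± 0.09% in high glucose with LPS, 1.49 ± 0.02% in control medium with LPS and 1.53 ± 0.05% in control medium (SD, n = 3 each). Mitochondrial members took 0.613 ± 0.106%, 0.551 ± 0.092%, 0.590 ± 0.079% and 0.657 ± 0.082% in the same 4 groups. The ratio of nuclear to mitochondrial member counts averaged 2.43 ± 0.59 in high fructose with LPS, 2.82 ± 0.70 in high glucose with LPS, 2.56 ± 0.37 in control medium with LPS and 2.35 ± 0.37 in control medium. In all 4 comparisons the libraries of the 2 groups overlapped in both shares and in the ratio, which are descriptions with no test. The copied mitochondrial members are uncertain in level, so the shares and the ratio are of counts as placed. They say nothing about the ratio of molecules. The widest values came from the 2 libraries that stand apart: high-glucose library 1 had a ratio of 3.62 and high-fructose library 2 of 1.87, the highest and the lowest of the 12. Library 1 had the highest ratio of its group in all 4 groups. It was 3.05 in high fructose with LPS and 3.62 in high glucose with LPS. In control medium it was 2.98 with LPS and 2.74 without. In bulk RNA, fewer cells carrying a transcript and less of it per cell cannot be told apart.

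**Figure D1:**
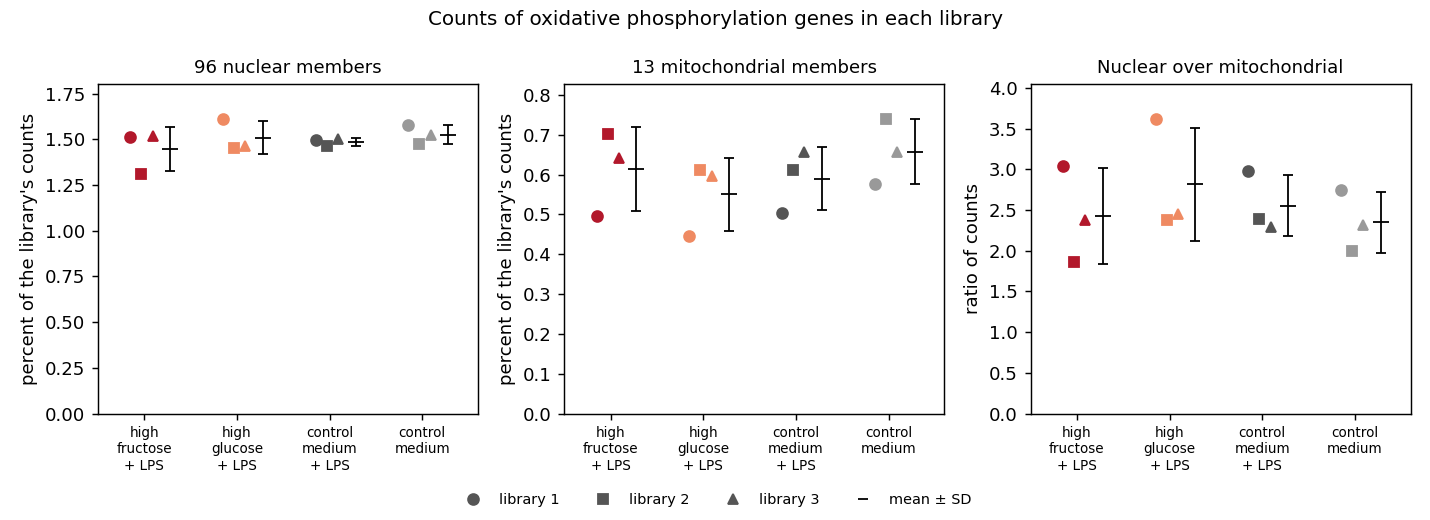
Percent of each library's counts in the 96 nuclear members (left) and the 13 mitochondrial members (middle), and their ratio (right), for the 4 groups; symbols are libraries 1 to 3 and the black bar is mean ± SD. The groups overlap in every panel, and the ratio runs from 1.87 in high-fructose library 2 to 3.62 in high-glucose library 1.

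Within groups the 2 genomes varied by library. In high-glucose library 1 the 89 tested nuclear members had a median deviation of 0.12 (log2) from their group mean with 82 of 89 above it, while the 12 tested mitochondrial members had -0.27. In high-fructose library 2 only 4 of 89 nuclear members were above the group mean, with a median deviation of -0.17, while the mitochondrial median was 0.17. Over the mitochondrial members it was high-fructose library 1 that lay apart, at -0.24, with library 3 at 0.07. Library 1 had the lowest mitochondrial median in the other groups too. It was -0.27 in high glucose with LPS, -0.19 in control medium with LPS and -0.18 in control medium. Over all 12766 genes tested the medians of high-glucose library 1 and high-fructose library 2 were -0.0004 and 0.0059. The scaling brings such medians near 0 in every library, so they do not tell whether these libraries are otherwise ordinary. The deviations also went with transcript length: Spearman's rho between length and deviation over the 89 nuclear members was -0.41 in high-glucose library 1 and 0.51 in high-fructose library 2, and it ran from -0.51 to 0.51 over the 12 libraries, a description over genes that share a library. The sugar comparisons were also fitted without these 2 libraries; the part of transcript length in them was not tested.

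The first comparison asks what LPS did in control medium, which is control medium with LPS over control medium. LPS left most of the respiratory chain within narrow bounds. Of 89 nuclear members tested, 3 rose (Atp5k, Ndufa3 and Cox6c) and 1 fell (Ndufaf7) at an adjusted p below 0.05 in edgeR's quasi-likelihood test, which is 4.49% of them, whereas 28.8% of all 12766 genes tested were called, 15.2% higher and 13.6% lower. No mitochondrial member of 12 tested was called. Without adjustment, 10 nuclear members and 1 mitochondrial member had p below 0.05, and DESeq2 called 0 mitochondrial and 3 nuclear members, all but Atp5k (adjusted p = 0.134). The 95% interval of the fold change lay within 1.5-fold in either direction for 80 of 89 nuclear members (89.9%) and 9 of 12 mitochondrial ones, against 64.1% of all genes. Interval width also depends on how well a gene is counted. In the 8 lists outside the name rule, described below, the share was 84.2 to 100%, so it is not particular to the members. The median log2 fold change was 0.04 for the nuclear members, with 63 positive and 26 negative, and -0.08 for the mitochondrial ones, with 3 positive and 9 negative, beside -0.004 for all genes. The sign of the nuclear median depends on the scaling: it was -0.01 with upper-quartile factors and -0.05 with library totals alone, where the median of all genes was -0.05 and -0.09, so relative to all genes it was above 0 in each case and the mitochondrial median was below.

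By complex, the 4 complex II members were all slightly negative and none was called, from -0.06 for Sdhb to -0.02 for Sdha. Sdha, the flavoprotein that oxidises succinate, had 342, 349 and 355 CPM in control medium with LPS, against 360, 359 and 344 CPM in control medium, values that overlap. Of 9 complex III members 8 were positive with a median of 0.10, and of 17 complex V members 16 were positive with a median of 0.08. Of 14 complex IV members 11 were positive with a median of 0.09, and of 36 complex I subunits 22 were positive with a median of 0.03. Cycs, cytochrome c itself, the mobile carrier that also triggers apoptosis when released, had a log2 fold change of 0.11 ± 0.06 (adjusted p = 0.180), and Cyc1, the cytochrome c1 of complex III, had 0.01 ± 0.07. Over the 12 libraries the level of Atp5a1 kept within 2135 to 2361 CPM, and its fold change was 0.03 ± 0.04.

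**Figure D2:**
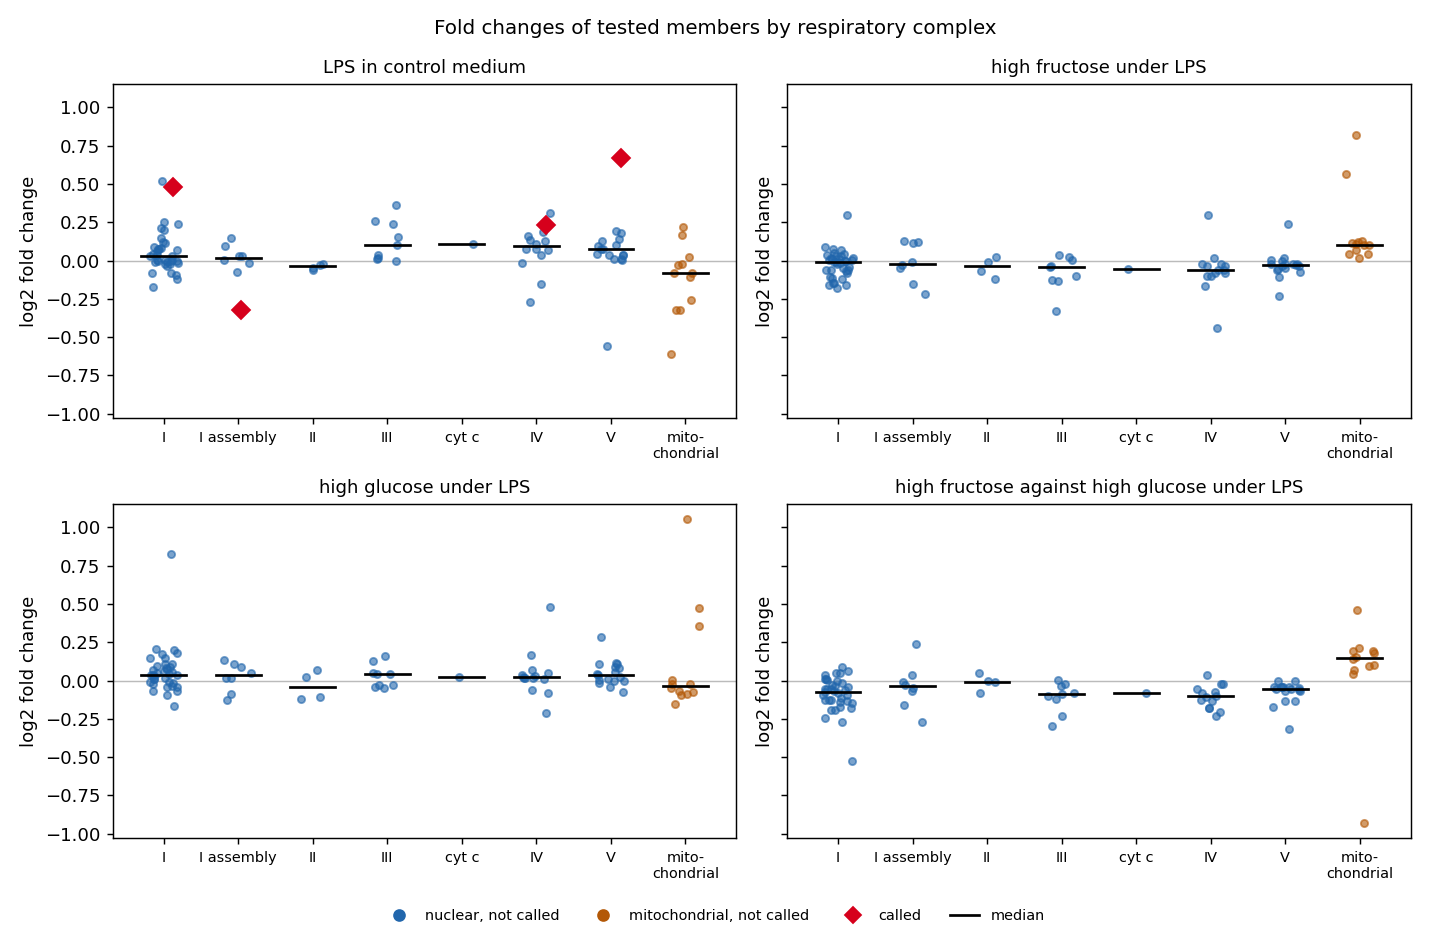
Log2 fold change of each tested member in the 4 comparisons, by complex for the nuclear members and together for the mitochondrial ones; black lines are medians and red diamonds are members called at an adjusted p below 0.05. Only the LPS comparison has called members, Atp5k, Ndufa3 and Cox6c above 0 and Ndufaf7 below; the outlying mitochondrial points in the sugar panels are mt-Co3, mt-Nd3 and mt-Nd4l, which are under 1000 counts.

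Atp5k, the e subunit of ATP synthase, which takes part in the pairing of synthase complexes in the membrane, had 33.7, 39.4 and 45.1 CPM in control medium with LPS, against 20.4, 23.8 and 30.1 CPM in control medium. Every LPS library was above every control library, and the log2 fold change was 0.67 ± 0.24 (adjusted p = 0.0410). In high fructose with LPS, Atp5k spread from 17.7 to 47.9 CPM, wider than in any other group.

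Ndufa3, an accessory subunit of complex I, had 30.5, 28.4 and 38.7 CPM in control medium with LPS, against 22.9, 23.1 and 24.0 CPM in control medium. The groups did not overlap, and the log2 fold change was 0.48 ± 0.17 (adjusted p = 0.0395). Cox6c, a small subunit of complex IV, had 108, 106 and 119 CPM in control medium with LPS, against 91.7, 97.0 and 95.8 CPM in control medium, again without overlap, and a log2 fold change of 0.23 ± 0.08 (adjusted p = 0.0431).

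Ndufaf7, a methyltransferase that modifies a core subunit during complex I assembly, had 15.8, 14.8 and 15.1 CPM in control medium with LPS, against 18.7, 20.1 and 18.2 CPM in control medium. The groups did not overlap, and the log2 fold change was -0.32 ± 0.09 (adjusted p = 0.0114). It was also between 13.8 and 16.1 CPM in every library of the raised-sugar groups with LPS.

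The 3 rises are near the threshold, and scaling by upper-quartile factors or library totals ended all of them, with adjusted p of 0.0576 to 0.201, as did limma on the FPKM values. Leaving out 1 library ended the call of Ndufaf7 without control library 2 (adjusted p = 0.0575), of Ndufa3 without any of the 3 control libraries or library 1 or 3 of control medium with LPS, of Atp5k without control library 1 or 2, library 2 or 3 of control medium with LPS or high-glucose library 2, and of Cox6c without any of the 6 libraries compared or high-glucose library 2. A fit on the 6 libraries of these 2 groups alone called 17 nuclear members, 16 of them higher, and 4221 of all 12296 genes tested. Another fit of all groups left out high-glucose library 1 and high-fructose library 2 and was added after the data were seen. It called 12 nuclear members and 4097 of all 13000 genes tested.

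**Figure D3:**
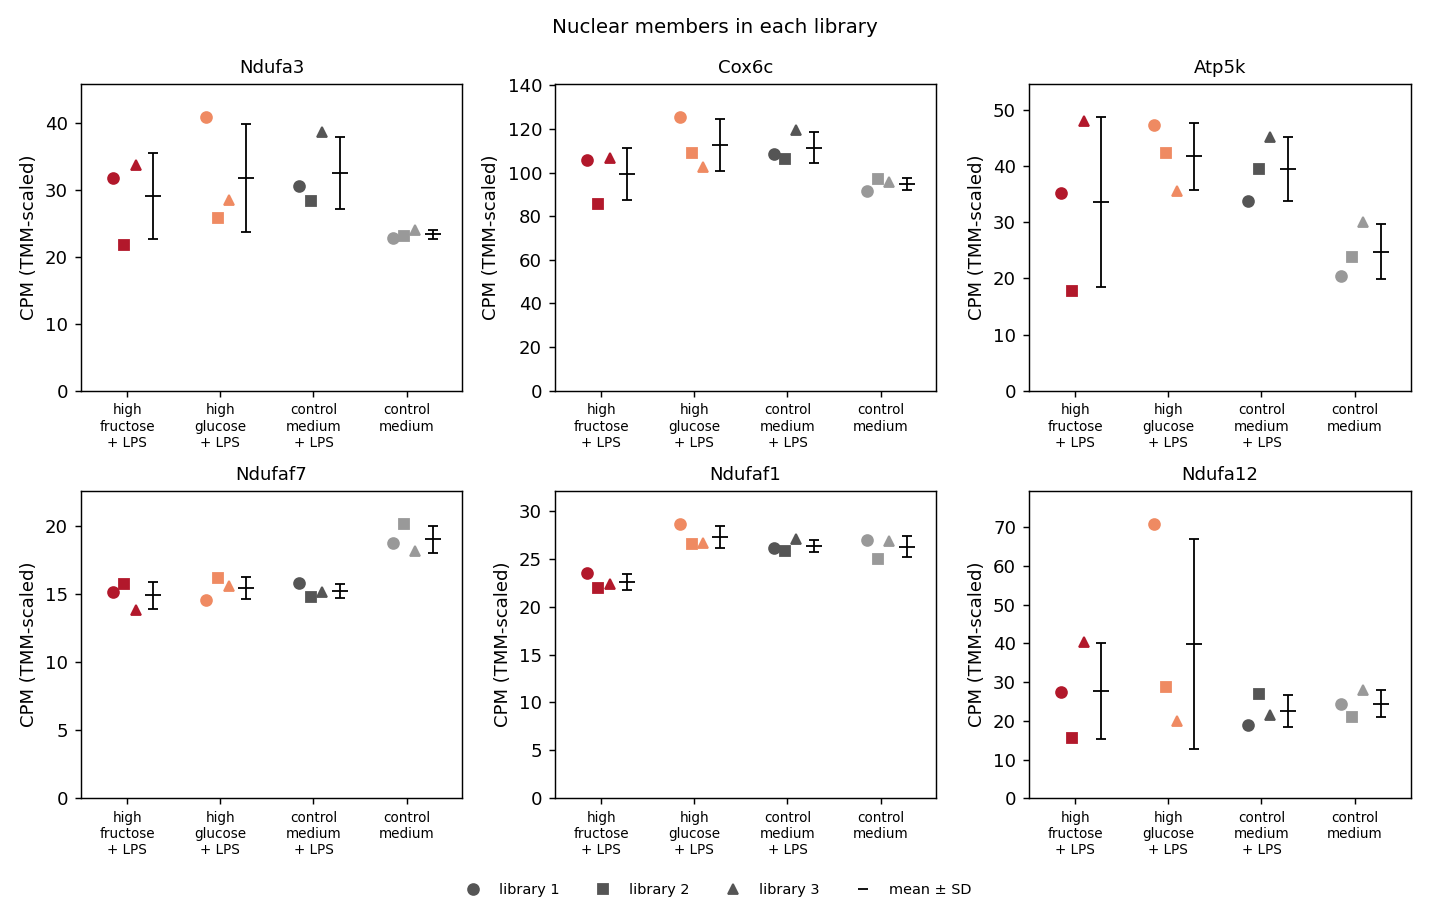
CPM of Ndufa3, Cox6c, Atp5k, Ndufaf7, Ndufaf1 and Ndufa12 in each library, with symbols for libraries 1 to 3 and mean ± SD in black. Control medium with LPS does not overlap control medium in the first 4 genes, Ndufaf1 is lowest in the 3 high-fructose libraries, and Ndufa12 reaches 70.8 CPM in 1 high-glucose library.

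The libraries of the 2 groups did not overlap for 20 of 89 nuclear members, 18 with LPS above and 2 with LPS below, which is 22.5%, against 44.3% of all genes tested. The next members by p were Cox7c, a complex IV subunit, at 0.31 ± 0.12 (adjusted p = 0.0546) and Uqcrh, the hinge subunit of complex III, at 0.26 ± 0.10 (adjusted p = 0.0607), both short of the threshold, Cox7c with uncertain counts, and named after their values were seen. Of the nuclear members with the most FPKM in their complex, Cox8a had a log2 fold change of 0.08 ± 0.08 and Ndufa2, a complex I subunit, 0.21 ± 0.16, and neither was called.

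Promoters of the called genes were searched for 3 motifs of factors known to drive respiratory chain genes, a choice made after the values were seen: the NRF1 motif CGCATGCG, the GABPA (NRF-2) motif CCGGAAGT and the YY1 motif AAGATGGC, on both strands, none of which contains another. For NRF1 a longer form of the motif was searched first and was replaced by this core after its result was known; any promoter with the longer form also holds the core, so the shares below are at least as high as those of the longer form. RefSeq promoters (GRCm38.p6, 250 bases before to 50 after the start) were matched for 77 of 95 nuclear member names, with 82 promoters in all. The NRF1 motif was in 14.6% of them, against 2.52% of 21263 promoters of protein-coding genes; the YY1 motif was in 13.4%, against 3.05%, and the GABPA motif in 6.1%, against 5.15%. Atp5k holds an NRF1 motif beginning 49 bases before its start (stretch at chr5:108434414-108434473, - strand) and Ndufa3 a YY1 motif 22 bases after its start (stretch at chr7:3617385-3617414, + strand). They are shown 5′ to 3′ with the motif in capitals, for the 2 called genes with a match.
Atp5k: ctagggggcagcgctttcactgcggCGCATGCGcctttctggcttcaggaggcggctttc
Ndufa3: cgccaagaacAAGATGGCcgggagtaagta

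Ndufaf7 matched none of the 3 in its window, and Cox6c had no entry. A match describes letters in a window and is not a measured site.

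Among mitochondrial members, those at the start of the heavy-strand transcript had the lowest fold changes of the well counted genes. mt-Nd1 had 810 to 1064 CPM in high fructose with LPS, 692 to 962 CPM in high glucose with LPS, and 794, 907 and 1005 CPM in control medium with LPS, against 1027, 1258 and 1106 CPM in control medium. All LPS libraries in control medium were below all control libraries, and the log2 fold change of -0.33 ± 0.12 just missed the threshold (adjusted p = 0.0502). mt-Nd2, also a core subunit of complex I and the next coding gene on the heavy-strand transcript, had 305, 347 and 384 CPM in control medium with LPS, against 365, 461 and 412 CPM in control medium, which overlap, with a log2 fold change of -0.26 ± 0.13 (adjusted p = 0.145). The call of mt-Nd1 turned on the setting. It passed in edgeR in 5 of the 12 fits that left out 1 library and with library totals (-0.41, adjusted p = 0.0130). DESeq2 did not call it (adjusted p = 0.140). With the replicate number as a block, a pairing that the labels do not state, it was also called. Calls under the other settings are counted in the last section. mt-Co1 had a log2 fold change of 0.02 ± 0.13, mt-Cytb of -0.08 ± 0.12, mt-Nd4 of -0.02 ± 0.14 and mt-Nd5 of -0.03 ± 0.17. mt-Nd6, the complex I subunit encoded on the opposite strand to the others, had 0.22 ± 0.15 (adjusted p = 0.329); 2.7% of its exonic bases overlap mt-Nd5, and the strand setting of the counting was not given in the labels.

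The mitochondrial rRNAs, which are not members and were named by the rule for other lists, did pass. mt-Rnr1, the small-subunit rRNA, had 471, 517 and 542 CPM in control medium with LPS, against 219, 240 and 215 CPM in control medium, a rise of 1.18 ± 0.10 on the log2 scale (adjusted p = 3.41e-08). mt-Rnr2, the large-subunit rRNA, rose by 0.82 ± 0.09 (adjusted p = 1.45e-06), with 262, 267 and 286 CPM in control medium with LPS and 139, 163 and 159 CPM in control medium. In genome order these 2 genes are followed directly by mt-Nd1, so neighbouring genes on the same strand had log2 fold changes of 1.18, 0.82 and -0.33. Together the rRNAs were 0.0770 ± 0.0049% of counts in control medium with LPS and 0.0397 ± 0.0024% in control medium (SD, n = 3 each). Genes annotated as nuclear rRNA took 0.457 to 0.585% of counts in control medium with LPS and 0.331 to 0.572% in control medium, which overlap. The labels leave the library chemistry unsaid, and its part in the rRNA values was not tested.

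**Figure D4:**
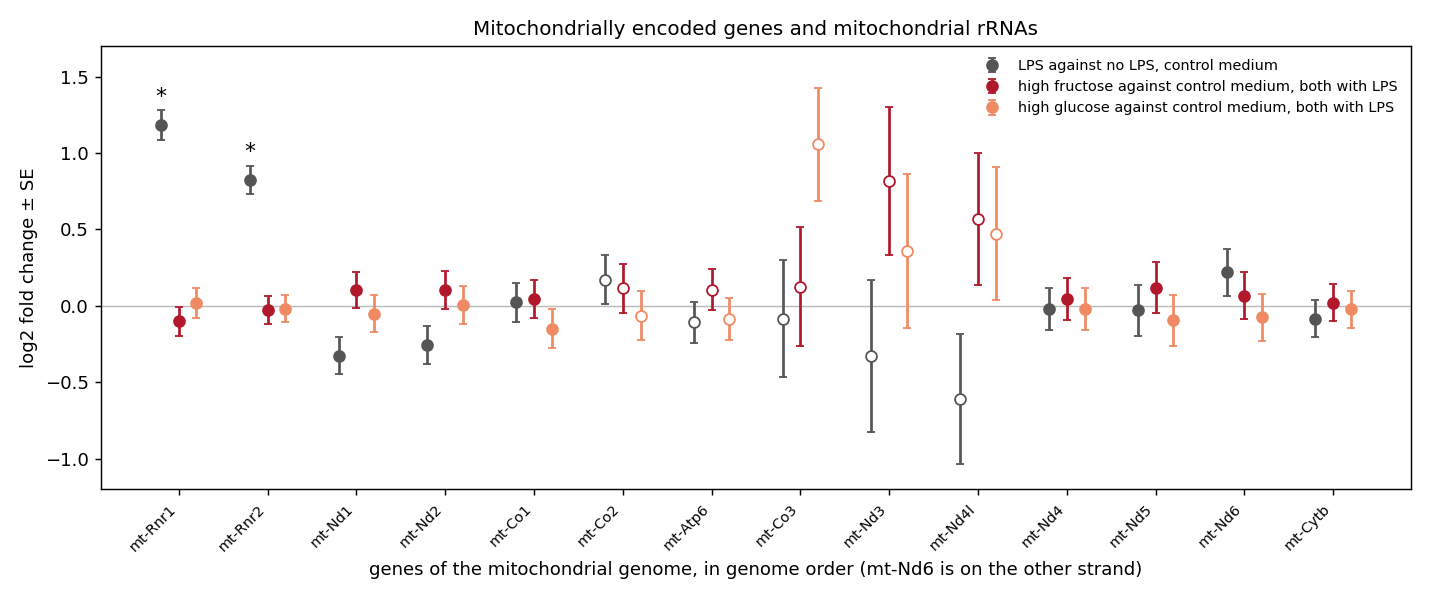
Log2 fold change ± SE of the 2 mitochondrial rRNAs and the 12 tested mitochondrial members in genome order, for LPS in control medium, high fructose under LPS and high glucose under LPS; open circles are genes under 1000 counts and stars mark adjusted p below 0.05. mt-Rnr1 and mt-Rnr2 stand at 1.18 and 0.82 with LPS, next to mt-Nd1 at -0.33, while the sugar values of the well counted genes lie near 0.

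Ratios within a library do not depend on how libraries are scaled to each other. They were formed after the values were seen and are given as a description. mt-Nd1 counts were 31.2 ± 1.7% of mt-Co1 counts in high fructose with LPS, 31.8 ± 1.1% in high glucose with LPS, 29.8 ± 1.1% in control medium with LPS and 37.9 ± 1.3% in control medium (SD, n = 3 each). By library they were 30.7, 28.6 and 30.2% in control medium with LPS, against 39.3, 37.7 and 36.8% in control medium, so that the gap between the groups was wider than the range within either. mt-Nd2 was 11.4 ± 0.4% of mt-Co1 in control medium with LPS, against 13.8 ± 0.1% in control medium, and mt-Cytb 22.3 ± 0.5% against 23.9 ± 0.2%, both without overlap. mt-Nd6 was 5.60 ± 0.36% in control medium with LPS, against 4.87 ± 0.44% in control medium, with all LPS libraries above, whereas mt-Nd4 and mt-Nd5 overlapped. mt-Rnr1 was 16.9 ± 1.1% in control medium with LPS and 7.58 ± 0.70% in control medium. Accordingly mt-Co1 made up 50.7 ± 0.5% of mitochondrial member counts in control medium with LPS and 47.7 ± 0.4% in control medium. These proportions are of counts and say nothing about the ratio of molecules between genes of different length.

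**Figure D5:**
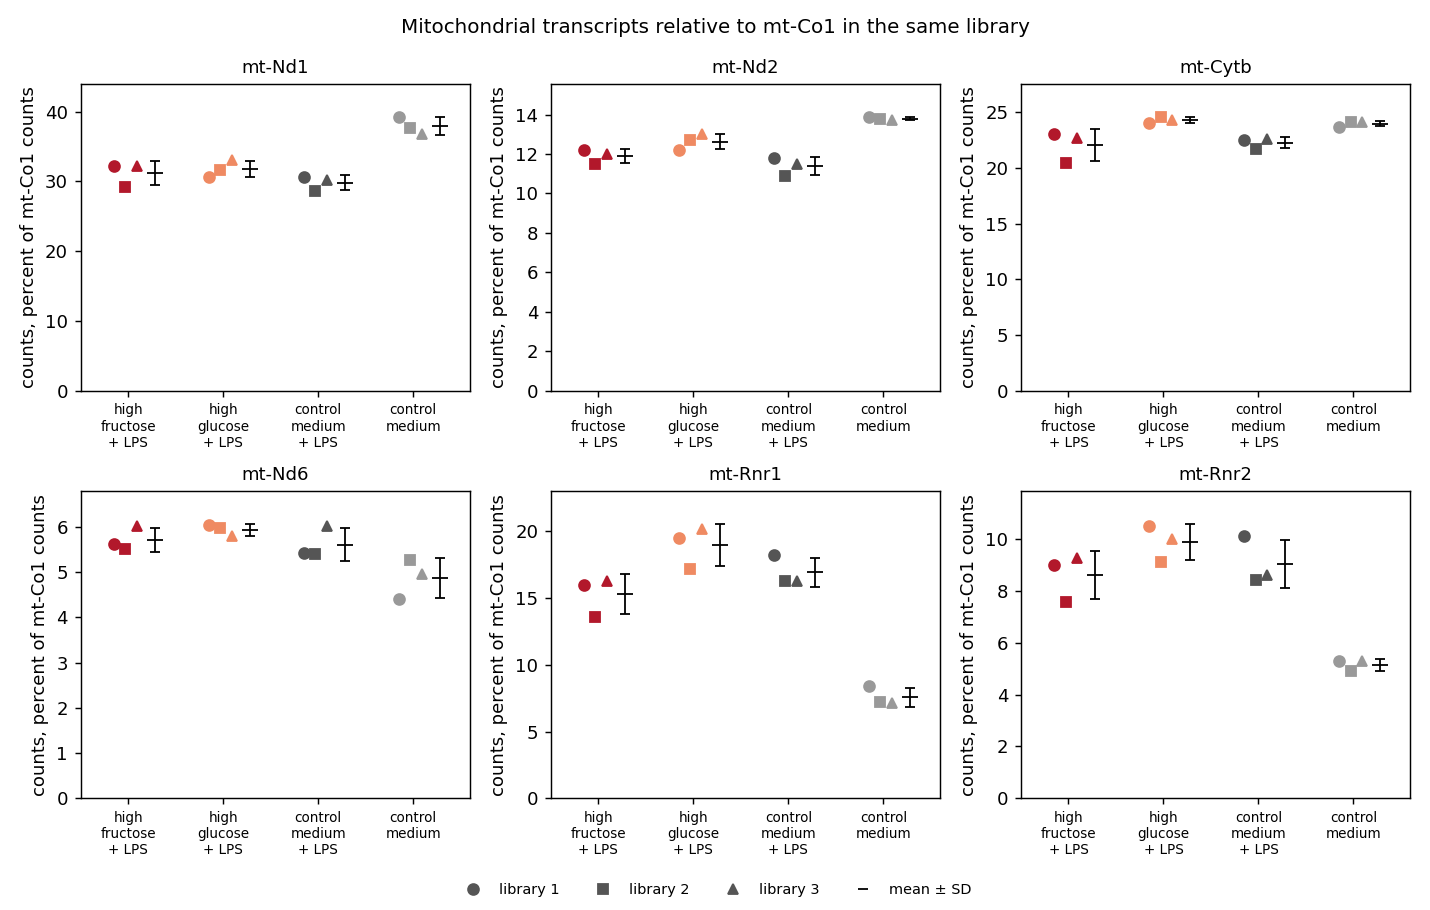
Counts of mt-Nd1, mt-Nd2, mt-Cytb, mt-Nd6, mt-Rnr1 and mt-Rnr2 as percent of the mt-Co1 counts of the same library, by group, with symbols for libraries 1 to 3 and mean ± SD in black. The LPS libraries in control medium lie below the control libraries for mt-Nd1, mt-Nd2 and mt-Cytb and above them for mt-Nd6 and both rRNAs.

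The 3 LPS groups overlapped in mt-Nd1 and mt-Nd6 relative to mt-Co1, while the libraries of high glucose with LPS lay above those of control medium with LPS for mt-Nd2 (12.6 ± 0.4% against 11.4 ± 0.4%), mt-Nd4 (10.9 ± 0.2% against 9.94 ± 0.63%) and mt-Cytb (24.3 ± 0.3% against 22.3 ± 0.5%). High fructose with LPS overlapped control medium with LPS in all 8 ratios formed. Its libraries lay below those of high glucose with LPS in 4 of the 8: mt-Nd2 (11.9 ± 0.3% against 12.6 ± 0.4%), mt-Nd4 (10.1 ± 0.7% against 10.9 ± 0.2%), mt-Cytb (22.0 ± 1.4% against 24.3 ± 0.3%) and mt-Rnr1 (15.3 ± 1.47% against 19.0 ± 1.55%). Sharing mt-Co1, the 8 ratios are not separate observations. In CPM, 17.9% of all genes did not overlap in this last comparison. That share was 19.2% for high glucose over control medium with LPS. No such share was formed for ratios.

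The next comparisons ask what raised fructose and raised glucose did in cells given LPS. They use the same 3 libraries of control medium with LPS, so their values are given side by side and their likeness is not measured. High fructose called 0 of 89 nuclear and 0 of 12 mitochondrial members, whereas 4.91% of all genes tested were called. High glucose also called 0 and 0, and 1.56% of all genes. In high fructose 2 nuclear and 0 mitochondrial members had an unadjusted p below 0.05, and in high glucose 2 and 1; DESeq2 called none in either. The 95% interval lay within 1.5-fold for 82 of 89 nuclear members in high fructose (92.1%, against 73.6% of all genes) and 84 of 89 in high glucose (94.4%, against 74.9%). In the 8 lists outside the name rule the share was 87.5 to 100% in high fructose and 86.7 to 100% in high glucose. The libraries of the 2 groups did not overlap for 4 of 89 nuclear members in high fructose (4.49%, against 20.4% of all genes) and for 5 in high glucose (5.62%, against 19.2%).

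The medians were small. In high fructose the nuclear median was -0.03, with 62 of 89 negative, and all 12 tested mitochondrial members were positive with a median of 0.10. In high glucose the nuclear median was 0.03 and the mitochondrial one -0.04. Without high-glucose library 1 and high-fructose library 2, an alternative chosen after seeing the data, the medians in high fructose were 0.03 and 0.01. Those in high glucose were -0.03 and 0.09, so the nuclear sign turned in both. High-glucose library 1 had the highest nuclear share of the 12 libraries (1.61%) and high-fructose library 2 the lowest (1.31%). Leaving them out moves the nuclear medians that way by the choice itself, so the turn does not show where the signs come from.

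The member with the smallest p in high fructose was Ndufaf1, a chaperone that joins the early complex I intermediate. It had 23.6, 22.0 and 22.4 CPM in high fructose with LPS, against 26.1, 25.8 and 27.1 CPM in control medium with LPS, without overlap. The log2 fold change was -0.22 ± 0.08 (adjusted p = 0.127), and limma on log2(FPKM + 1) gave -0.21 with an adjusted p of 0.0263. Ndufab1, the mitochondrial acyl carrier protein that is also a complex I subunit, had -0.16 ± 0.07 (adjusted p = 0.309). Atp5k had -0.23 ± 0.23 and Cox6c -0.16 ± 0.08 in high fructose, and 0.08 ± 0.23 and 0.02 ± 0.08 in high glucose.

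In high glucose the 2 members with the largest differences each turned on 1 library. mt-Co3, a core subunit of complex IV inside the copied block, had 8.44, 8.90 and 33.1 CPM in high glucose with LPS, against 7.82, 7.22 and 9.14 CPM in control medium with LPS. Library 3 held 520 counts of it, while none of the other 11 libraries passed 180, and the log2 fold change of 1.06 ± 0.37 (adjusted p = 0.199) was 0.11 without that library. Ndufa12, an accessory subunit of complex I, had 70.8, 28.7 and 20.0 CPM in high glucose with LPS, against 18.9, 27.0 and 21.5 CPM in control medium with LPS. Its log2 fold change of 0.83 ± 0.35 (adjusted p = 0.303) was 0.11 without high-glucose library 1; 36.2% of its transcript matches the pseudogene Gm15920. Ndufv3, a small complex I subunit next to the NADH-binding site, had 47.3, 40.8 and 43.2 CPM in high glucose with LPS, against 37.9, 36.4 and 39.8 CPM in control medium with LPS, which do not overlap, and a log2 fold change of 0.20 ± 0.09 (adjusted p = 0.329).

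The fourth comparison sets high fructose against high glucose, both with LPS, at the same nominal 15 mM. No member was called among 89 nuclear and 12 mitochondrial ones, against 3.72% of all genes, and DESeq2 called none; 8 nuclear and 1 mitochondrial members had an unadjusted p below 0.05. The nuclear median was -0.07, with 75 of 89 members and all 17 tested of complex V negative, and the mitochondrial median was 0.15, with 11 of 12 positive. Without high-glucose library 1 and high-fructose library 2 the medians were 0.08 and -0.11, the opposite signs. Those libraries were chosen after the data were seen and had the highest and the lowest ratio of nuclear to mitochondrial counts (3.62 and 1.87). Leaving them out moves the medians this way by the choice itself, so the reversal does not show where the direction comes from. Ndufaf1 again had the smallest p, with 23.6, 22.0 and 22.4 CPM in high fructose with LPS, against 28.6, 26.5 and 26.7 CPM in high glucose with LPS, and a log2 fold change of -0.27 ± 0.08 (adjusted p = 0.0581). The libraries of the 2 groups did not overlap for 3 of 89 nuclear members (3.37%, against 17.9% of all genes). Ndufaf4, another complex I assembly factor, had -0.16 ± 0.06 (adjusted p = 0.151), Ndufc2, a complex I subunit, -0.24 ± 0.10 (adjusted p = 0.225) and Uqcr10, a small subunit of complex III, -0.23 ± 0.10 (adjusted p = 0.238).

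Genes that build, feed or express the chain were followed as lists outside the name rule. With LPS, 2 of 40 tested assembly factors rose and 2 fell: Ttc19, which acts in maintaining complex III, rose by 0.50 ± 0.07 (adjusted p = 4.35e-05) and Coa5, a complex IV assembly factor, by 0.35 ± 0.05 (adjusted p = 3.26e-05), while Atpaf2, a chaperone of ATP synthase, had -0.30 ± 0.07 (adjusted p = 0.00209) and the complex III factor Bcs1l also fell. Of 18 genes for mitochondrial RNA processing and stability 4 rose and none fell, led by Pnpt1, a mitochondrial exoribonuclease and known interferon-induced gene, which rose to 107, 101 and 105 CPM in control medium with LPS, against 74.3, 80.4 and 74.9 CPM in control medium (0.45 ± 0.05, adjusted p = 4.50e-06). The others were Trmt10c, whose call ended with library totals (adjusted p = 0.102), Tbrg4, whose call ended with no filter, upper-quartile factors or library totals and without any of the 6 libraries compared (adjusted p of 0.0592 to 0.575), and Ptcd1, whose call ended with DESeq2 or either of those scalings and without 5 of the 6 libraries, all but library 1 of control medium with LPS (0.0547 to 0.167). Of 15 genes for mitochondrial DNA maintenance and transcription 2 fell and none rose: Polrmt had -0.25 ± 0.06 (adjusted p = 0.00424) and the nuclease Mgme1 -0.33 ± 0.11 (adjusted p = 0.0316). The Mgme1 call ended without control library 1 or 2 or without library 2 or 3 of control medium with LPS (adjusted p of 0.0807 to 0.156). Of 8 regulators Esrra, a nuclear receptor known to drive respiratory genes, rose by 0.42 ± 0.08 (adjusted p = 0.000362), and the corepressor Nrip1 had -0.41 ± 0.12 (adjusted p = 0.0110, and 0.0655 without library 3 of control medium with LPS). Of 77 mitochondrial ribosomal proteins 4 rose, led by Mrpl52 at 0.74 ± 0.11 (adjusted p = 4.20e-05), and 3 fell. Of 22 tricarboxylic acid cycle genes and their regulators 1 was called, Pdk1, a kinase that inhibits pyruvate dehydrogenase, at -0.36 ± 0.05 (adjusted p = 3.50e-05). Of 19 genes of other electron entry 1 was called, Coq5, an enzyme of ubiquinone synthesis, at -0.17 ± 0.06 (adjusted p = 0.0360). That call ended with no filter (0.107), with DESeq2 (0.0561) and without control library 1 or 2 or library 1 or 2 of control medium with LPS (0.0901 to 0.14). Of 7 carriers Slc25a25 rose and Ucp2, a proton leak and metabolite carrier of macrophages, fell to 577, 574 and 569 CPM in control medium with LPS, against 644, 654 and 658 CPM in control medium (-0.19 ± 0.05, adjusted p = 0.00494). The share called was 28.6% of the carriers, 25.0% of the regulators, 22.2% of the RNA processing genes and lower in the other lists, against 28.8% of all genes.

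High fructose called 3 of the 206 list genes tested, which is 1.46%, against 4.91% of all genes, and high glucose called 0 of 206, against 1.56%. Cox15, which makes the haem A of complex IV, had -0.20 ± 0.05 (adjusted p = 0.0157), a call that ended without library 2 or 3 of control medium with LPS or high-fructose library 1 or 3 (0.0602 to 0.0697). Pnpt1 had 86.9, 81.4 and 84.1 CPM in high fructose with LPS, against 107, 101 and 105 CPM in control medium with LPS (-0.31 ± 0.05, adjusted p = 0.00165), and Slc25a24, the ATP-magnesium and phosphate carrier, had 112, 118 and 104 CPM in high fructose with LPS, against 89.5, 90.5 and 95.5 CPM in control medium with LPS (0.28 ± 0.06, adjusted p = 0.00846, and 0.0516 without library 1 of control medium with LPS). The direct comparison of high fructose with high glucose called 2 of 206 (0.971%, against 3.72% of all genes), Pnpt1 (-0.23 ± 0.05, adjusted p = 0.0205) and Slc25a24 (0.28 ± 0.06, adjusted p = 0.0110). Without high-glucose library 1 and high-fructose library 2 neither was called, with -0.22 (adjusted p = 0.0988) for Pnpt1 and 0.19 (adjusted p = 0.128) for Slc25a24. The fit on the 2 groups alone also ended both calls (0.0889 and 0.0595), as did leaving out high-glucose library 2 or high-fructose library 2 or 3 for Pnpt1 (0.0662 to 0.101), and high-glucose library 1 or high-fructose library 2 for Slc25a24 (0.0534 and 0.0571).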

How the data were processed

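Raw read counts per gene were deposited by the authors, made with featureCounts 1.5.0-p3 on mm10 per the submitters' processing notes, with an FPKM table that the authors deposited beside them. FPKM equalled the count over gene length and a constant per library (largest deviation 1.18e-07% at 200 counts or more). The aligner, annotation, strand setting and library chemistry were not stated in those sources. Counts were tested with edgeR 4.0.16 (R 4.3.3): filterByExpr kept 12766 genes, TMM scaling, quasi-likelihood F tests, 1 coefficient for each of 4 groups of 3 libraries, 4 contrasts, Benjamini-Hochberg adjustment over all genes tested, and a call at adjusted p below 0.05. CPM are TMM-scaled. Of the members, 7 nuclear ones and mt-Atp8 were below the filter and were not tested. Alternatives used DESeq2 1.42.0, limma 3.58.1 (pseudocounts 0.1 and 1), other scalings, no filter, the replicate number as a block, the 2 groups alone and each library left out. Replicate pairs differed beyond sampling noise (chi-square per degree of freedom of 3.57 or more). Shared sequence was found with BLAST 2.17.0+ on GENCODE M21 transcripts, at 98% identity over at least 75 bases. Genes were named by a rule: all mitochondrial members, called members, the 4 smallest p-values per contrast and the nuclear member with the most FPKM in each complex. Also named were complex II, Cyc1, Cycs, the isoform sets, and up to 4 called genes per other list. The members and lists were chosen with earlier results of these data known.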

Additional observations from a re-analysis of the deposited data

How the results depend on the processing

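Nuclear members called with LPS numbered 4; no filter on low counts gave 14, upper-quartile factors 1, library totals alone 1, limma on FPKM 1 at either pseudocount, the 2 groups alone 17, the fit without high-glucose library 1 and high-fructose library 2 12, and leaving out 1 library 0 to 7 (0 without control library 2, 7 without high-fructose library 2). Mitochondrial members called with LPS numbered 0; no filter gave 3, DESeq2 size factors 1, upper-quartile factors 1, library totals 2, the 2 groups alone 2, the fit without those 2 libraries 2, and leaving out 1 library 0 to 1. In 5 of those fits the call was mt-Nd1, lower, whereas without library 1 of control medium with LPS it was mt-Co2, higher (0.37, adjusted p = 0.0458). In high glucose no filter gave 1 nuclear and 2 mitochondrial calls, the fit without those 2 libraries 1 nuclear, and leaving out 1 library 0 to 1 nuclear. In high fructose no filter gave 1 nuclear call and limma 1 at either pseudocount; for high fructose against high glucose no filter gave 6 nuclear and 3 mitochondrial calls and limma 1 nuclear at either pseudocount. With LPS, the main fit called 3677 of all 12766 genes tested, no filter 3689 of 24558 and the 2 groups alone 4221 of 12296. The fit without those 2 libraries called 4097 of 13000. No filter called 427 of 24558 genes in high glucose, 810 in high fructose and 660 for high fructose against high glucose. Beyond the smaller or larger set of libraries or genes, the cause of the changes in member calls was not tested.

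The labels number the replicates but pair nothing. Of 18 same-number pairs 4 correlated above 0.1 (-0.194 to 0.243) and 6 of 12 libraries correlated best with their own number, so the numbers were not taken as pairing the samples. With the number as a replicate block, LPS called 6 nuclear members and 3 mitochondrial ones (mt-Nd1 lower, adjusted p = 8.2e-05, mt-Nd2 lower, 0.00117, and mt-Nd6 higher, 0.00889), high glucose 0 and 1, high fructose 0 and 0, and high fructose against high glucose 2 and 1. The block called 4149 of all 12766 genes tested with LPS. The mitochondrial share did go with the number: library 1 had the lowest share in each of the 4 groups. It was 0.497, 0.445, 0.503 and 0.576% in high fructose, high glucose and control medium with LPS and control medium. Library 1 also had the highest ratio of nuclear to mitochondrial member counts in each group.

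Of 6250 gene values recomputed, none changed sign where either fit called it; 315 changed sign where neither did, up to a size of 0.93 (log2), and were not counted as reversals. With 15453776 counts or more per library, low counts limit mainly mt-Nd3, mt-Nd4l, mt-Atp8 and the tissue isoforms. The transcripts of mt-Nd3 and mt-Nd4l also match pseudogene copies over almost all their bases. What set their counts was not tested.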
